A study of Rattus norvegicus with 40 samples.

Results

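The Nr4a orphan nuclear receptors Nr4a1, Nr4a2 and Nr4a3 were followed in neonatal rat ventricular myocytes (NRVMs), heart muscle cells isolated from newborn rats and kept in culture. The members were chosen by gene symbol, as 3 of the 14217 genes that have a probe set with 1 symbol. All probe sets that the array's annotation assigns to 1 of the 3 genes were taken, which gave 6 of the 31042 probe sets on the array: 1 for Nr4a1, 2 for Nr4a2 and 3 for Nr4a3. Of these, 4 passed the filter on low values (the mean log2 value had to exceed 6.48, which is the 40th percentile over the array) and 18625 probe sets passed in all. The study measured total RNA on 40 Affymetrix rat genome arrays. The labels give 10 groups in 2 arms, ischemia and ischemia+reperfusion, each at 0, 10, 30, 60 and 120 min. Each group had 4 arrays, as 2 duplicates from each of 2 preparations, as the titles number them. The titles do not say what a preparation was or whether groups shared it. All groups are NRVMs in the coverslip hypoxia model, in which a glass coverslip laid on the cells limits their exchange with the medium.

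The labels give no strain, genotype or drug. They do not say how long reperfusion lasted, which stage the minutes count, or how the 0 min cells of the ischemia+reperfusion arm were handled. Whether the duplicates came from separate cultures is also not given, so that p-values may in part measure technical spread. The model lacks the blood supply and many of the cells of a heart. Among the markers of heart muscle cells, all 15 on the array passed the filter, and their summed normalized intensity was 123142 to 141984 at 0 min of ischemia and 136607 to 141899 at 120 min. The arrays thus carried the defining genes of the labelled cell type. In such bulk samples, fewer cells of a type and less RNA per cell cannot be told apart.

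The NR4A proteins are transcription factors of the nuclear receptor superfamily. They are called orphans because no hormone is established as their ligand, and their ligand pocket is filled by bulky side chains, so their activity is set largely by how much protein is made. They bind as monomers to the NBRE, a response element of the nerve growth factor-induced receptor Nur77, and as dimers to a related palindrome. All 3 are immediate early genes, transcribed within minutes to hours of a stimulus without new protein synthesis. Calcium, cyclic AMP acting through CREB, MEF2 factors and inflammatory signals are known inducers. Nr4a1 (Nur77) is known in heart muscle for its response to beta-adrenergic stimulation and for roles in metabolism and cell death. Nr4a2 (Nurr1) is best known for dopamine neurons, and Nr4a3 (NOR-1) for vascular smooth muscle and hypoxia responses.

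The promoters of the members are shown because CREB, which acts through the cyclic AMP response element (CRE), is among the known activators of these genes. The sequences are the 250 bases before the RefSeq start used for each gene in the GRCr8 assembly, 5′ to 3′ on the gene's strand. Capitals mark the CRE core TGACG or its complement CGTCA. Nr4a1 lies at chr7:134259888-134260137 on the plus strand and Nr4a2 at chr3:62104888-62105137 on the minus strand. Both windows fall inside the annotated span of their own gene, which has several transcripts. They therefore do not precede the outermost start of the gene, and the bases before other starts were not searched. The table had promoters for 2 of the 3 genes, and Nr4a3 was not among them.
Nr4a1: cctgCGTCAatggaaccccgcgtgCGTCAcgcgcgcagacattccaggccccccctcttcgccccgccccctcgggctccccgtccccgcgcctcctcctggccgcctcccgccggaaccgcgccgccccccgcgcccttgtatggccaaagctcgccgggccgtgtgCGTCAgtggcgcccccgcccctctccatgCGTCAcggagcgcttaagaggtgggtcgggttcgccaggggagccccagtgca
Nr4a2: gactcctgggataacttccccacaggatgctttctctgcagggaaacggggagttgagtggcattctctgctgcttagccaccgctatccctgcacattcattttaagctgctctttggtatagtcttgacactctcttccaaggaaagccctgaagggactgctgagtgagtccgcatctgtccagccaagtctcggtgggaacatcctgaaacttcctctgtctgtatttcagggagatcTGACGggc

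The Nr4a1 window held 4 CRE cores, all on the strand opposite to the gene, beginning 246, 226, 82 and 53 bases before the start. At least 1 core (either strand) was found in 18.2% of 33469 promoters of this length, and 4 or more in 0.173%. The Nr4a2 window held 1 core, 8 bases before the start. Nr4a1 had a GC content of 74.8%, against a median of 51.2% over all promoters, and Nr4a2 had 52.0%. A GC-rich window offers more chances for a motif that contains CG. The Nr4a1 window also held 3 GC boxes (GGGCGG, either strand), a number that 7.41% of promoters reach. At least 1 match to the NF-kB site, of which it held 1, is in 6.33% of promoters. None of these matches overlapped another. The full CRE (TGACGTCA), the AP-1 site (TGANTCA), the NBRE (AAAGGTCA), the MEF2 site and the CArG box were searched on both strands and had no match in either window. They occur in 1.59%, 6.34%, 1.24%, 2.96% and 1.5% of promoters. The core of the hypoxia response element (ACGTG) and the TATA box (TATAAA) also had no match, and occur in 16.6% and 12.9%. A match describes letters in the window and is not evidence of binding.

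Values are given below as log2(quantile-normalized intensity + 16), array by array in the order preparation 1 duplicate 1, preparation 1 duplicate 2, preparation 2 duplicate 1 and preparation 2 duplicate 2. Changes are differences of group means on this scale, from limma's fit over all groups with the preparation as a block, with the standard error. A call is a Benjamini-Hochberg adjusted p under 0.05 over the 18625 probe sets of a comparison. All changes against 0 min within an arm share that arm's 0 min arrays, so they are not independent of each other.

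At 120 min a pair of arrays stood apart from the others of their groups. Hspa1a, the inducible heat shock protein 70 gene, read 9.76, 9.62, 10.19 and 13.15 in ischemia and 13.25, 13.21, 9.75 and 13.00 in ischemia+reperfusion. The ischemia array of preparation 2 duplicate 2 thus had the level of the other arm, and so did the ischemia+reperfusion array of preparation 2 duplicate 1. Whether the labels of these arrays are right was not tested. The pair was picked from these data by a gene whose level differed between the arms on the other arrays. Leaving the pair out therefore favours differences between the arms at 120 min. The Nr4a changes, steps, arm differences and interactions at 120 min and the list counts are given with both arrays and again without them, while the correlations and nearest patterns use all arrays.

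Nr4a1 RNA rose by 120 min in both arms, and its highest level was at 120 min of ischemia. In ischemia its values were 8.45, 8.61, 8.83 and 8.80 at 0 min, 8.57, 8.51, 8.21 and 8.65 at 10 min, and 9.23, 9.19, 9.28 and 9.06 at 30 min. They were 9.73, 10.40, 9.81 and 9.20 at 60 min and 10.68, 10.56, 10.47 and 10.91 at 120 min. The 4 arrays at 120 min lay above every other array of the arm, those at 60 min included. The median deposited intensity was 415 at 0 min and 1450 at 120 min.

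The ischemia change of Nr4a1 at 120 min was 1.98 ± 0.19 (95% interval 1.56 to 2.41), a 3.95-fold rise (limma, adjusted p = 0.00071), and it was 2.09 in preparation 1 and 1.88 in preparation 2. Both preparations thus showed a rise of similar size. Without the pair of arrays that stood apart it was 1.87 (adjusted p = 0.0016). At 60 min the change was 1.12 with an adjusted p of 0.065, and all 4 arrays lay above the 0 min arrays. That change was called when preparation 2 duplicate 2 of 60 min was left out (1.27, adjusted p = 0.02). At 30 min the change was 0.52 (adjusted p = 0.25), again with no overlap with 0 min, and at 10 min it was -0.19 (adjusted p = 0.60).

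In ischemia+reperfusion Nr4a1 read 8.71, 8.61, 8.84 and 8.77 at 0 min, 9.0, 9.01, 8.72 and 8.80 at 10 min, and 9.17, 9.29, 8.79 and 9.06 at 30 min. It read 9.68, 9.26, 9.57 and 9.42 at 60 min and 9.90, 10.20, 9.75 and 9.12 at 120 min. From 60 min on every array lay above the 0 min arrays, while the ranges at 60 and 120 min overlapped. The change at 120 min was 1.01 ± 0.19 (95% interval 0.59 to 1.44), a 2.02-fold rise (limma, adjusted p = 0.016). It was 1.40 in preparation 1 and 0.63 in preparation 2, and 0.86 (adjusted p = 0.045) without the pair.

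The Nr4a1 change at 60 min of ischemia+reperfusion, 0.75 ± 0.19, was called just inside the threshold (adjusted p = 0.04996). It was not called without preparation 1 duplicate 1 of 60 min (0.65, adjusted p = 0.10) or preparation 2 duplicate 1 of 60 min (0.72, adjusted p = 0.06). It was also not called without preparation 1 duplicate 2 (0.73, adjusted p = 0.052) or preparation 2 duplicate 2 of 0 min (0.74, adjusted p = 0.053). At 10 and 30 min the changes were 0.15 and 0.35 and were not called.

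Ordered by level, Nr4a1 ran from 8.48 at 10 min of ischemia through 8.67 and 8.73 at the 0 min groups to 9.74 at 120 min of ischemia+reperfusion, 9.79 at 60 min of ischemia and 10.65 at 120 min of ischemia. Only the last of the 9 steps between neighbours in this order, 0.87, separated groups whose arrays did not overlap. The other neighbours overlapped.

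**Figure D1:**
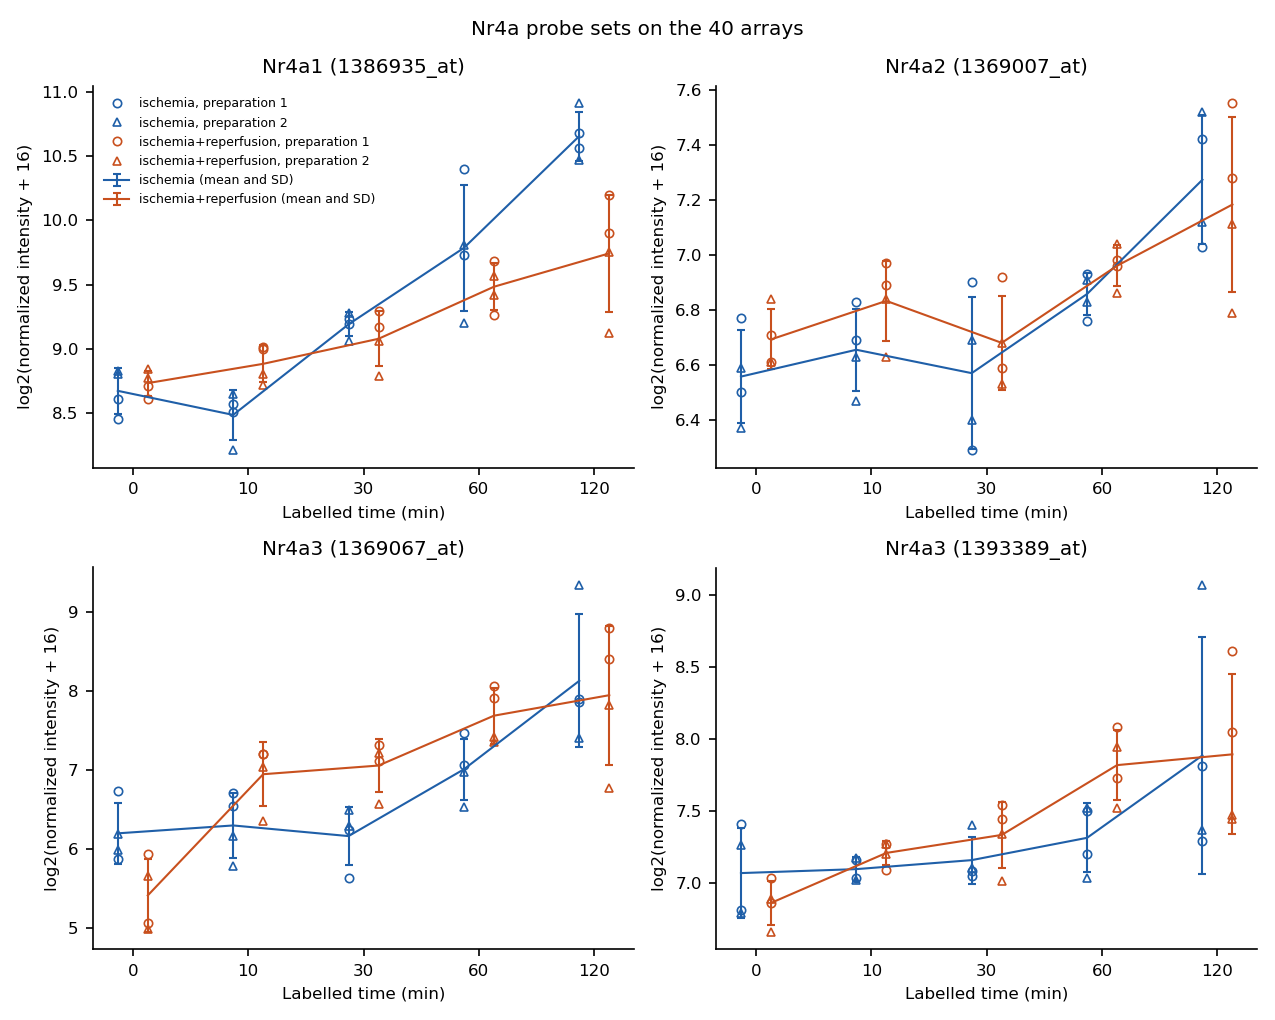
Log2(normalized intensity + 16) of the 4 Nr4a probe sets that passed the filter, against labelled time in minutes (evenly spaced). Circles and triangles are single arrays of preparations 1 and 2, lines join group means, and bars are 1 SD of 4 arrays. Nr4a1 at 120 min of ischemia lies above all other arrays, and Nr4a3 at 0 min of ischemia+reperfusion has the lowest group mean of its probe set 1369067_at, 5.41.

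Nr4a2 RNA rose by 120 min in both arms, by less than Nr4a1 and than Nr4a3 on the probe set 1369067_at. Against Nr4a3 on 1393389_at, the Nr4a2 change was smaller in ischemia+reperfusion (0.49 against 1.03). In ischemia the order was not settled, with 0.71 against 0.82 ± 0.25. Without the pair of arrays that stood apart it was reversed, 0.61 against 0.39. The tested probe set of Nr4a2, 1369007_at, lay near the filter with a mean of 6.83 over all arrays. In ischemia it read 6.50, 6.77, 6.59 and 6.37 at 0 min, and 7.42, 7.03, 7.12 and 7.52 at 120 min. All 4 arrays at 120 min were above all at 0 min. In ischemia+reperfusion it read 6.71, 6.61, 6.61 and 6.84 at 0 min and 7.28, 7.55, 6.79 and 7.11 at 120 min. Here 1 array at 120 min, preparation 2 duplicate 1, lay within the 0 min range, and it is an array of the pair that stood apart.

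The ischemia change of Nr4a2 at 120 min was 0.71 ± 0.11 (95% interval 0.46 to 0.96), or 1.64-fold (limma, adjusted p = 0.0061). It was 0.59 and 0.84 in the preparations. In ischemia+reperfusion the change was 0.49 ± 0.11, or 1.40-fold (adjusted p = 0.031), and 0.76 and 0.22 in the preparations. Without the pair the changes were 0.61 (adjusted p = 0.0028) and 0.57 (adjusted p = 0.0057). The ischemia+reperfusion change was not called without preparation 2 duplicate 2 of 120 min (0.41, adjusted p = 0.093) or preparation 2 duplicate 1 of 0 min (0.43, adjusted p = 0.069). It was also not called without the preparation block (adjusted p = 0.06).

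At 10, 30 and 60 min Nr4a2 was not called in either arm. Its changes were 0.10, 0.01 and 0.30 in ischemia and 0.14, -0.02 and 0.27 in ischemia+reperfusion. The group means of Nr4a2 ran from 6.56 at 0 min of ischemia to 7.18 and 7.27 at 120 min of ischemia+reperfusion and of ischemia, and all neighbours in this order overlapped.

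Nr4a3 RNA rose in both arms by 120 min on the probe set 1369067_at, and in ischemia+reperfusion by 60 min. In ischemia this probe set read 6.74, 5.87, 5.99 and 6.19 at 0 min, 6.71, 6.54, 5.78 and 6.16 at 10 min, and 6.24, 5.63, 6.49 and 6.29 at 30 min. It read 7.06, 7.47, 6.98 and 6.53 at 60 min and 7.90, 7.87, 7.41 and 9.35 at 120 min. The arrays of 0, 10 and 30 min covered similar ranges, and those at 120 min lay above them all. The highest of all, 9.35, is an array of the pair that stood apart.

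In ischemia+reperfusion 1369067_at read 5.94, 5.06, 5.65 and 4.99 at 0 min, 7.20, 7.20, 6.35 and 7.04 at 10 min, and 7.32, 7.12, 6.57 and 7.22 at 30 min. It read 8.07, 7.91, 7.42 and 7.36 at 60 min and 8.41, 8.80, 6.77 and 7.82 at 120 min. No array of any later time reached down to the 0 min range. The 0 min values were themselves low: the median deposited intensity was 27.3, against 267 at 120 min, so the size of a change depends on the constant of 16 added before the logarithm. With a constant of 64 the Nr4a3 change at 120 min was 1.72 and at 60 min 1.48, and with a constant of 1 they were 3.10 and 2.84.

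The Nr4a3 change on 1369067_at at 120 min was 1.93 ± 0.34 in ischemia (95% interval 1.19 to 2.68), or 3.82-fold (limma, adjusted p = 0.0086), with 1.58 and 2.29 in the preparations. In ischemia+reperfusion it was 2.54 ± 0.34 (95% interval 1.79 to 3.28), or 5.81-fold (adjusted p = 0.0047), with 3.10 and 1.97 in the preparations. Without the pair these changes were 1.45 (adjusted p = 0.0042) and 2.80 (adjusted p = 0.00025). At 60 min of ischemia+reperfusion the change was 2.28, or 4.85-fold, and was called (adjusted p = 0.0095), while the 0.81 of ischemia was not (adjusted p = 0.29).

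At 10 and 30 min of ischemia+reperfusion the changes of Nr4a3 on 1369067_at were 1.54 and 1.65, 2.90-fold and 3.13-fold, and were not called (adjusted p = 0.11 and 0.055). The change at 10 min was called without preparation 2 duplicate 1 of that time (1.71, adjusted p = 0.034). The change at 30 min was called in 4 of the 8 fits that left out 1 array of its groups. These left out preparation 1 duplicate 1 of 0 min (1.87, adjusted p = 0.04), preparation 2 duplicate 1 of 0 min (1.81, adjusted p = 0.038), or preparation 1 duplicate 2 or preparation 2 duplicate 1 of 30 min (1.70 and 1.81, adjusted p = 0.04 and 0.038). In ischemia the changes at 10 and 30 min were 0.10 and -0.04.

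The probe set 1393389_at of Nr4a3 moved in the same direction with smaller changes. It read 6.81, 7.41, 6.79 and 7.26 at 0 min and 7.29, 7.81, 7.37 and 9.07 at 120 min of ischemia, ranges that overlap. The change was 0.82 ± 0.25 and was not called (adjusted p = 0.054). It fell to 0.39 (adjusted p = 0.17) without the pair, to which the 9.07 belongs. It was called without preparation 1 duplicate 2 of 0 min (0.97, adjusted p = 0.038), preparation 2 duplicate 2 of 0 min (0.94, adjusted p = 0.039) or preparation 1 duplicate 1 of 120 min (0.95, adjusted p = 0.02).

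In ischemia+reperfusion 1393389_at read 6.86, 7.03, 6.89 and 6.66 at 0 min, 8.08, 7.73, 7.94 and 7.52 at 60 min and 8.05, 8.61, 7.47 and 7.44 at 120 min. Both later groups lay above 0 min without overlap. The Nr4a3 change on this probe set was 1.03 ± 0.25 at 120 min, or 2.05-fold (limma, adjusted p = 0.035), with 1.39 and 0.68 in the preparations and the same 1.03 (adjusted p = 0.012) without the pair. At 60 min it was 0.95 (adjusted p = 0.054), and it was called without preparation 1 duplicate 2 (1.00, adjusted p = 0.045) or preparation 2 duplicate 1 of 0 min (1.01, adjusted p = 0.046). It was also called without preparation 1 duplicate 2 (1.04, adjusted p = 0.034) or preparation 2 duplicate 2 of 60 min (1.06, adjusted p = 0.036).

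On 1369067_at the level of Nr4a3 ran from 5.41 at 0 min of ischemia+reperfusion to 7.69 at its 60 min, 7.95 at its 120 min and 8.13 at 120 min of ischemia. In that order a gap of 0.63 between 30 and 60 min of ischemia+reperfusion was the only step without overlap. On 1393389_at the level ran from 6.86 at 0 min to 7.89 at 120 min of ischemia+reperfusion and all neighbours overlapped.

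**Figure D2:**
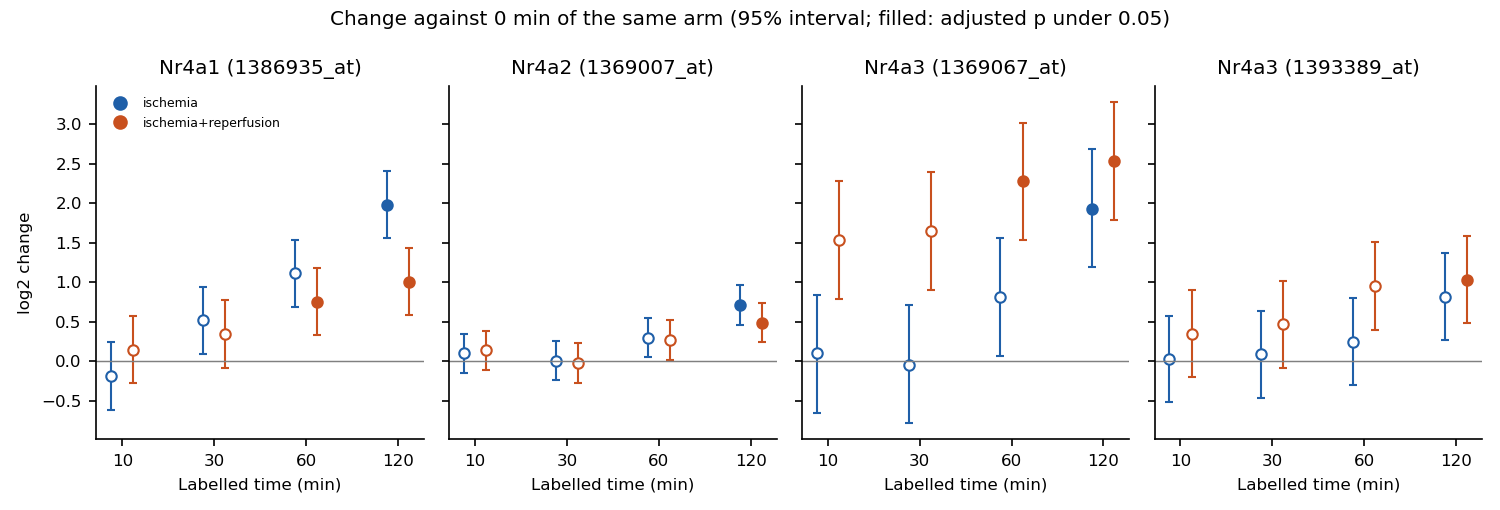
Log2 change against 0 min of the same arm for the 4 tested Nr4a probe sets, at the labelled times (evenly spaced). Bars are 95% intervals from limma's fit and filled points have an adjusted p under 0.05. At 120 min 3 of the 4 probe sets are called in ischemia and all 4 in ischemia+reperfusion.

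Counted over the family, 3 of the 4 tested Nr4a probe sets were called higher at 120 min of ischemia and 4 of 4 at 120 min of ischemia+reperfusion. Of all tested probe sets, 6.45% and 3.5% were called higher there. At 60 min the counts were 0 of 4 in ischemia, where 0.0859% of all were called higher, and 2 of 4 in ischemia+reperfusion, where 2.19% were. At 30 min no Nr4a probe set was called in either arm, beside 0.0698% of all in ischemia and 0.408% in ischemia+reperfusion, and at 10 min none was called beside 1.14% and 0.0215%. At an unadjusted p under 0.05 in limma the counts in ischemia were 0, 1 and 3 of 4 at 10, 30 and 60 min, and in ischemia+reperfusion 1, 1 and 4 of 4. Of all probe sets, 22%, 15.6% and 15.8% passed this threshold in ischemia and 11.3%, 14.8% and 22.9% in ischemia+reperfusion, in either direction, so that 1 of 4 is near the background. The median change of all tested probe sets at 120 min was 0 in ischemia and -0.02 in ischemia+reperfusion. Without the pair, 3 of 4 and 4 of 4 were called at 120 min. The filter used the mean over all arrays, so a rise itself helped a dim probe set to be tested. Nr4a3 on 1369067_at averaged 6.20 and 5.41 at 0 min of ischemia and ischemia+reperfusion, under the filter at 6.48. Nr4a3 on 1369217_at averaged 6.41 and 6.53 there and was left out with 6.43 over all arrays. The counts out of 4 are therefore not independent of the rise, and the shares of all probe sets passed the same filter.

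Consecutive times were compared within each arm. From 60 to 120 min of ischemia Nr4a1 rose by 0.87 (limma, adjusted p = 0.043), 1 of 4 Nr4a probe sets, where 1.54% of all were called higher. The call was lost without the pair (0.76, adjusted p = 0.086), without preparation 2 duplicate 2 of 120 min (0.76, adjusted p = 0.051), and without preparation 1 duplicate 1 (0.70, adjusted p = 0.13) or preparation 2 duplicate 2 of 60 min (0.71, adjusted p = 0.056). The steps of Nr4a2 and of Nr4a3 on 1369067_at were 0.41 (adjusted p = 0.078) and 1.12 (adjusted p = 0.093), and without the pair 0.31 (adjusted p = 0.068) and 0.64 (adjusted p = 0.13). That of 1393389_at was 0.57 (adjusted p = 0.22), and 0.14 (adjusted p = 0.71) without the pair. The Nr4a2 step was called without preparation 1 duplicate 2 of 120 min (0.51, adjusted p = 0.038). No Nr4a probe set was called from 10 to 30 min of ischemia, beside 0.161% of all, or in the other steps, where limma called 0% of all probe sets higher. These other steps are 30 to 60 min of ischemia and the 3 later steps of ischemia+reperfusion. At an unadjusted p under 0.05, 1 of 4 passed from 10 to 30 min and 3 of 4 from 30 to 60 min of ischemia, and 0, 1 and 0 of 4 in the 3 ischemia+reperfusion steps in order of time. Of all probe sets 9.45% and 2.56% passed in the ischemia steps and 4.63%, 6.68% and 11.1% in the ischemia+reperfusion steps.

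The arms were compared at equal times, ischemia+reperfusion minus ischemia. No Nr4a probe set was called at any time. Of all tested probe sets limma called 0.333% at 0 min, 0% at 10 min, 0.532% at 30 min, 5.38% at 60 min and 0% at 120 min, in either direction. At an unadjusted p under 0.05, 1, 0, 1, 0 and 1 of the 4 Nr4a probe sets passed, beside 18.2%, 9.99%, 15.6%, 24.1% and 7.16% of all. The total of the members over these times is near this background.

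The largest difference between the arms in Nr4a1 was at 120 min, where all 4 ischemia+reperfusion arrays (9.12 to 10.20) lay below all 4 ischemia arrays (10.47 to 10.91). The difference was -0.91 ± 0.19 (95% interval -1.33 to -0.49), with an unadjusted p of 0.00059 and an adjusted p of 0.41 in limma. It ranked 27 among 18625 by p. Without the pair of arrays that stood apart it was -0.96 and was called (adjusted p = 0.045), in a fit that called 669 probe sets at this time instead of 0. The pair was picked from the same data, so this call is not separate support for a difference between the arms. At 10 min the order was the other way, with all 4 ischemia+reperfusion arrays (8.72 to 9.01) above the ischemia arrays (8.21 to 8.65), a difference of 0.40 (adjusted p = 0.53). The differences at 0, 30 and 60 min were 0.06, -0.11 and -0.30.

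For Nr4a3 on 1369067_at the difference between the arms was -0.79 at 0 min, 0.65 at 10 min, 0.90 at 30 min and 0.68 at 60 min (adjusted p = 0.25, 0.56, 0.23 and 0.25). At 30 min all 4 ischemia+reperfusion arrays (6.57 to 7.32) lay above the ischemia arrays (5.63 to 6.49). At 120 min it was -0.18, with 0.72 and -1.09 in the preparations, and 0.56 (limma, adjusted p = 0.19) without the pair. The other probe set, 1393389_at, differed by 0.50 at 60 min (adjusted p = 0.25) and 0.01 at 120 min. At 120 min its preparations went opposite ways, 0.79 and -0.77, and without the pair its difference was 0.43 ± 0.19 (limma, adjusted p = 0.23). Nr4a2 differed by at most 0.18 in size at any time, with -0.09 at 120 min and 0.09 without the pair.

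**Figure D3:**
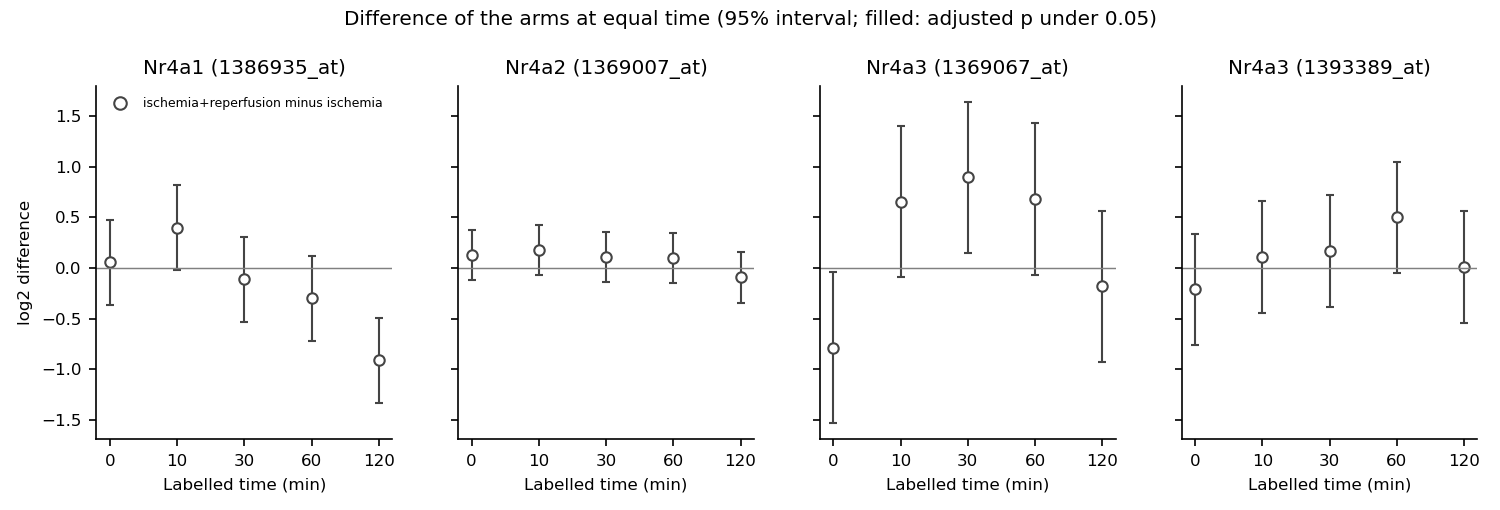
Log2 difference of ischemia+reperfusion minus ischemia at equal labelled time (evenly spaced) for the 4 tested Nr4a probe sets, with 95% intervals from limma's fit. All points are open because no difference had an adjusted p under 0.05. The Nr4a1 difference at 120 min is -0.91, and those of Nr4a3 on 1369067_at turn from -0.79 at 0 min to 0.90 at 30 min.

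Whether the change from 0 min differed between the arms was tested as an interaction. At 120 min Nr4a1 rose by 0.97 less on the log2 scale in ischemia+reperfusion (-0.97 ± 0.27, unadjusted p = 0.0044, limma adjusted p = 0.28), and without the pair it was -1.02 (adjusted p = 0.16). For Nr4a3 on 1369067_at the interaction was 1.44, 1.68 and 1.47 at 10, 30 and 60 min, each ± 0.48, with adjusted p of 0.27, 0.81 and 0.34, and 0.60 at 120 min (adjusted p = 0.67). Without the pair the value at 120 min was 1.35 ± 0.32 (limma, adjusted p = 0.085), and that of 1393389_at was 0.63 (adjusted p = 0.26). The difference of -0.79 between the arms at 0 min enters each of these values. No Nr4a probe set was called at 120 min, where limma called 0% of all, and 1 of 4 had an unadjusted p under 0.05, beside 10.4% of all. An F test over the 4 interaction terms called none of the 4, beside 0.00537% of all probe sets. Its adjusted p was 0.26 for Nr4a1, 0.81 for Nr4a2, and 0.36 and 0.75 for Nr4a3.

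The remaining probe sets did not pass the filter and had no part in these counts. The Nr4a2 probe set 1387410_at had negative deposited values on 35 of 40 arrays and was at the floor on 36 after normalization, so no level is given for it. The Nr4a3 probe set 1369217_at had a mean log2 value of 6.43, just under the filter at 6.48, while 1369007_at of Nr4a2 and 1369067_at of Nr4a3 (6.89) were the nearest members above it. The group means of 1369217_at were 6.41, 6.20, 7.02, 7.05 and 6.60 from 0 to 120 min of ischemia and 6.53, 6.31, 6.13, 6.02 and 6.01 of ischemia+reperfusion. It did not share the rise of the other Nr4a3 probe sets, and the correlation with them over the 20 preparation means was -0.20 and -0.12. In a limma fit without the filter its change at 120 min was 0.19 in ischemia and -0.52 ± 0.42 in ischemia+reperfusion. In that fit its differences between the arms were 0.12, 0.12, -0.90, -1.03 and -0.59 from 0 to 120 min, each ± 0.42. At 30 and 60 min (limma, adjusted p = 0.38 and 0.21) these were opposite in sign to those of 1369067_at. No comparison called 1369217_at or 1387410_at. The part of the transcript each probe set measures was not analysed here.

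**Figure D4:**
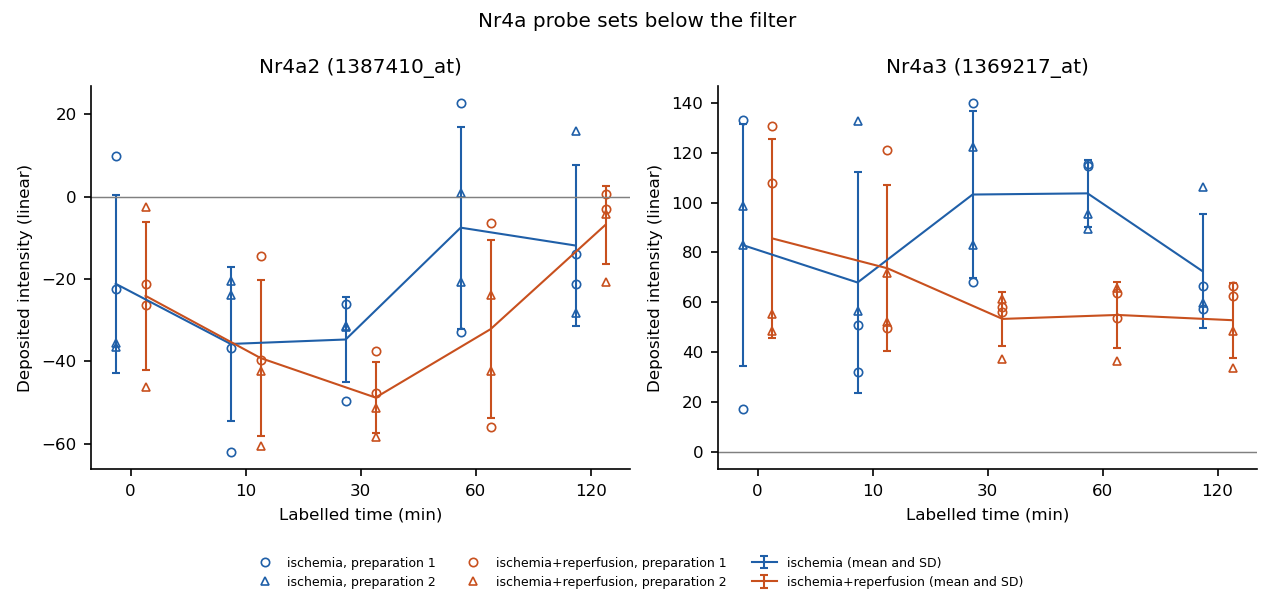
Deposited intensity on a linear scale, before normalization, of the Nr4a2 and Nr4a3 probe sets below the filter, against labelled time (evenly spaced). Circles and triangles are single arrays of preparations 1 and 2, lines join group means and bars are 1 SD of 4 arrays. The Nr4a2 probe set lies mostly below 0, and the Nr4a3 probe set shows no rise at 120 min in either arm.

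The tested members resembled each other across the experiment. Over the 20 preparation means, Pearson's r was 0.82 between Nr4a1 and Nr4a2, 0.78 and 0.76 between Nr4a1 and the Nr4a3 probe sets, 0.85 and 0.85 between Nr4a2 and Nr4a3, and 0.93 between both Nr4a3 probe sets. These values describe arrays that share cultures, preparation and normalization.

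The other early genes known to be induced along with Nr4a are a list that holds AP-1, Egr and Klf factors, feedback kinases and phosphatases, and small GTPases. Like the lists that follow, it was chosen with earlier results of these data known, so its counts are a description. Of 38 genes, 34 passed the filter. In ischemia 16 of them rose and 1 fell at 120 min, and 17 were not called (median change 0.74). Of all probe sets, 6.45% were called higher there and 6.48% lower. In ischemia+reperfusion 13 rose, none fell and 21 were not called (median 0.55), with 22 higher and 2 lower at an unadjusted p under 0.05 in limma. In that comparison 3.5% of all probe sets were called higher and 3.68% lower, and 24% passed the unadjusted threshold in either direction. Without the pair the counts were 14 higher and 2 lower, and 16 higher and 0 lower. At 60 min 4 rose in ischemia and 9 in ischemia+reperfusion, beside 0.0859% and 2.19% of all probe sets called higher.

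Among the called genes the largest changes in ischemia were those of Fos, an AP-1 subunit, with 2.83 ± 0.20 (limma, adjusted p = 0.00037), Rrad, a small GTPase that restrains calcium channels, with 2.25 ± 0.45, Sik1, a kinase that feeds back on CREB coactivators, with 2.19 ± 0.35, and Atf3, a stress-induced repressor, with 1.79 ± 0.43. Among those called in ischemia+reperfusion they were Atf3 with 3.05 ± 0.43 (adjusted p = 0.0063), Fos with 2.37 ± 0.20, the prostaglandin synthase Ptgs2 with 1.48 ± 0.15, and Gem, a relative of Rrad, with 1.41 ± 0.23. The AP-1 subunit Fosb was not called, with 1.81 ± 0.79 in ischemia (adjusted p = 0.14) and 2.67 ± 0.79 in ischemia+reperfusion (adjusted p = 0.065). The Nr4a1 change of 1.98 in ischemia thus lay among those of the leading members of this list.

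Of 45 other nuclear receptors in the list, 27 passed the filter. Few were called, at shares near those over all probe sets in ischemia (6.45% higher and 6.48% lower). In ischemia 2 rose at 120 min, the retinoic acid receptor Rarg (0.80 ± 0.17) and Esrra (0.46 ± 0.11), an orphan receptor of oxidative metabolism. There 2 fell, the receptors without a DNA-binding domain Nr0b2 (-1.06 ± 0.22) and Nr0b1 (-0.57 ± 0.12), with a median of 0.09. In ischemia+reperfusion limma called 0 higher and 1 lower, Pparg (-0.59 ± 0.15), with a median of -0.02, and 2 were higher at an unadjusted p under 0.05. Of all probe sets, 3.5% were called higher there and 3.68% lower, and 24% passed the unadjusted threshold in either direction. The brightest, which were not called there, were Nr2f2 (-0.49), Esrrg (-0.41) and the glucocorticoid receptor Nr3c1 (-0.11). Without the pair the counts were 2 higher and 2 lower in ischemia, and 1 higher and 2 lower in ischemia+reperfusion.

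Of 37 regulators upstream of Nr4a, such as CREB, MEF2, their coactivators and protein kinase A subunits, 29 passed. Their counts at 120 min of ischemia were not above the 6.45% higher and close to the 6.48% lower of all probe sets. In ischemia 1 rose at 120 min, Hdac7 (1.05 ± 0.21), a class IIa deacetylase that represses MEF2. There 2 fell, Creb1 (-0.33 ± 0.08) and Prkaca (-0.25 ± 0.07), the kinase's catalytic subunit. None of the 29 was called in ischemia+reperfusion, where 3.5% of all probe sets were called higher and 3.68% lower. At an unadjusted p under 0.05 in limma, 5 were higher and 4 lower, beside 24% of all probe sets in either direction. The changes of the brightest were 0.00 for Prkar1a, -0.20 for Mef2a and -0.24 for Prkaca. The medians were 0.02 and 0. RNA levels do not report the activity of these proteins. Without the pair the counts were 1 higher and 3 lower, and 1 and 1.

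Of 37 genes known as NR4A targets or partners, 28 passed. The count called higher at 120 min of ischemia, 2, is near the 6.45% of all probe sets. Of all, 6.48% were called lower there, and in ischemia+reperfusion 3.5% were called higher and 3.68% lower. In ischemia 2 rose at 120 min, Pdk4, a kinase that restrains pyruvate oxidation (0.82 ± 0.23), and Slc2a4, the insulin-responsive glucose transporter (0.52 ± 0.15). There 3 fell, the largest being the glycolytic enzymes Pgam2 (-0.73 ± 0.15) and Bpgm (-0.54 ± 0.11). In ischemia+reperfusion 2 rose, Pdk4 (1.00 ± 0.23) and the transcriptional coregulator Cited2 (0.52 ± 0.10), and 1 fell, Phka1 (-0.25 ± 0.06). The medians were 0.07 and -0.04. Without the pair the counts were 3 higher and 2 lower, and 3 higher and 1 lower.

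Markers of other cell types in such cultures were read at the same time. Of all tested probe sets, 6.45% were called higher and 6.48% lower at 120 min of ischemia. In ischemia+reperfusion 3.5% were called higher and 3.68% lower. At an unadjusted p under 0.05 in limma, 31.8% and 24% of all passed in either direction. A single call in such a short list is not far from this background. In ischemia 4 of 7 tested endothelial markers rose at 120 min, Pecam1 (1.04 ± 0.24), Tie1 (0.52), Eng (0.36) and Tek (0.33). Their summed intensity was 2610 to 3626 at 0 min and 3183 to 4321 at 120 min. In ischemia+reperfusion limma called 0 of 7, with 2 higher at an unadjusted p under 0.05. Without the pair 3 were called higher in ischemia and 1 in ischemia+reperfusion. In ischemia 2 of 12 fibroblast markers rose, Pdgfra (0.45) and Fbln1 (0.43), with sums of 52561 to 58383 and 59684 to 61728, and in ischemia+reperfusion 1 fell, Tcf21 (-0.61). Among 7 smooth muscle and pericyte markers Rgs5 rose in ischemia (0.72) and Cspg4 in ischemia+reperfusion (0.87). None of 12 macrophage and leukocyte markers was called by limma in ischemia, with 3 higher at an unadjusted p under 0.05, and Mrc1 fell in ischemia+reperfusion (-0.69). The sums of this list were 7131 to 8814 at 0 min and 8837 to 10025 at 120 min of ischemia, and 7957 to 9837 and 8160 to 10909 in ischemia+reperfusion. Its marker Cd163 was at the floor on all arrays. Of 15 heart muscle markers only Myh7 was called, higher in ischemia+reperfusion (0.32). Without the pair 1 heart muscle marker was called higher in each arm, 3 fibroblast markers were higher in ischemia and 1 lower in ischemia+reperfusion, and 1 smooth muscle marker was higher in each arm. The macrophage list then had none called in ischemia, and 1 higher and 1 lower in ischemia+reperfusion. The part of these other cells in the Nr4a changes was not tested.

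For each member, Pearson correlations over the 20 preparation means were taken between its brightest tested probe set and the tested probe sets of other genes. Another gene was represented by its best correlated probe set, and the 5 genes with the most similar pattern were kept. For Nr4a1 these were Zfp36, an mRNA decay factor (r = 0.95), Ier2 (0.91), the repressor Snai1 (0.91), Vat1 (0.88) and the cytokine gene Il1b (0.87). Their changes at 120 min of ischemia were 0.90, 1.17, 0.61, 0.31 and 2.17, and of ischemia+reperfusion 0.48, 0.98, 0.52, 0.18 and 2.00. For Nr4a2 they were the ubiquitin ligase gene Peli1 (0.89), Il1a (0.88), the kinase gene Tlk2 (0.88), Il1b (0.88) and Cd2ap (0.87). Their changes were 0.20, 1.68, 0.67, 2.17 and 0.33 at 120 min of ischemia and 0.24, 1.07, 0.74, 2.00 and 0.26 of ischemia+reperfusion, so that 3 were larger in ischemia, as for Nr4a2, and 2 in ischemia+reperfusion. Il1b was the gene that the lists of Nr4a1 and Nr4a2 shared.

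For Nr4a3, on its brightest probe set 1393389_at, the nearest were the mitochondrial iron carrier Slc25a37 (0.95), the ligand gene Bmp2 (0.94), the AP-1 subunit Fosb (0.93), the protease inhibitor Tfpi2 (0.92) and Vasn (0.91). Their changes at 120 min of ischemia were 0.36, 0.76, 1.81, 0.85 and 0.42, and of ischemia+reperfusion 0.49, 0.87, 2.67, 1.22 and 0.64. In all 5 the ischemia+reperfusion change was the larger, as for Nr4a3 itself, whereas in all 5 neighbours of Nr4a1 the ischemia change was the larger, as for Nr4a1. The gap between the arms is the interaction at 120 min, which limma called for 0% of all probe sets. It was -0.42 ± 0.12 for Zfp36 (limma, adjusted p = 0.30), -0.19 ± 0.24 for Ier2 (adjusted p = 0.80) and 0.85 ± 1.11 for Fosb (adjusted p = 0.81). For Nr4a3 on 1393389_at the interaction at 120 min was 0.22 ± 0.35 (limma, adjusted p = 0.86). The genes were chosen for this likeness, so the agreement is a description.

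**Figure D5:**
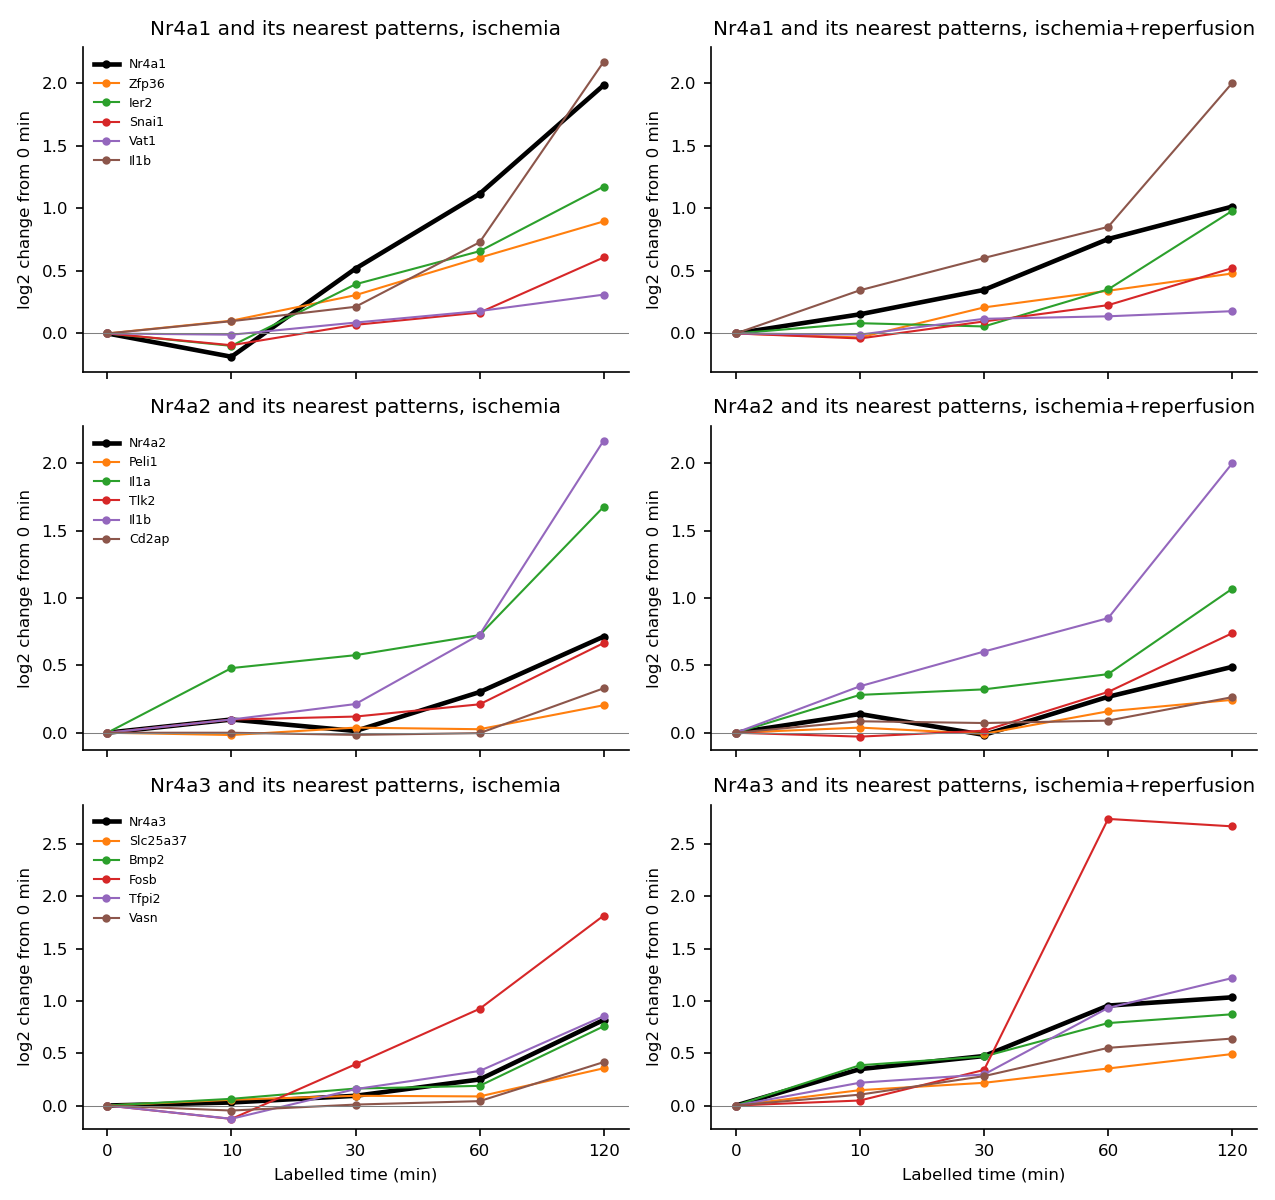
Log2 change of group means from 0 min of the same arm for each Nr4a gene (black) and the 5 genes with the highest correlation to it, against labelled time (evenly spaced), ischemia on the left and ischemia+reperfusion on the right. Nr4a1 reaches 1.98 in ischemia and 1.01 in ischemia+reperfusion. Fosb, near Nr4a3, has the largest change of the plotted genes at 120 min of ischemia+reperfusion, 2.67.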

How the data were processed

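Total RNA was extracted on spin columns and turned into biotin-labelled cRNA, per the labels' protocols. The deposited table holds 1 linear intensity per probe set and array. Its values span -1725 to 17404, with 15.8% negative. Array medians ran from 101 to 171. The summary and scaling method is not given in the sources used here. Symbols came from the platform annotation: 20826 probe sets have 1 symbol, 436 several and 9780 none there.

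The intensities were quantile normalized, floored at 0 and taken as log2(value + 16). Probe sets above the 40th percentile of mean log2 value (18625) were kept. Duplicates were averaged to 20 preparation means, and limma 3.58.1 in R 4.3.3 was fitted over all 10 groups with the preparation as a block, leaving 9 residual degrees of freedom. Equal preparation numbers in the labels were taken as the same preparation across groups. The difference between the preparations was taken in each group over the tested probe sets. Between pairs of groups these differences correlated at a median of 0.18 (-0.18 to 0.53, with 34 of 45 pairs above 0.1). P-values were adjusted by Benjamini-Hochberg within a comparison.

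The number of arrays limits the precision, with a median standard error of 0.118. The members and gene lists were chosen with earlier results of these data known. Named were all Nr4a probe sets, the 5 nearest genes per member, and from each list up to 4 called genes with the largest change at 120 min, or else the brightest 3. The script was tested on simulated data. Alternatives covered the scale, pseudocount, filter, block, variance model and left-out arrays.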

Additional observations from a re-analysis of the deposited data

Results flagged for a closer look

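The array of preparation 2 duplicate 2 at 30 min of ischemia read 7.40 for Nr4a3 on 1393389_at, against 7.05 to 7.10 on the other 3 arrays of its group. Its gap to the nearest array was 0.87 of the group's range, beyond Dixon's 95% critical value for 4 samples. It was the only such array among 40 groups of 4 (10 groups for each of 4 probe sets), and chance gives about 1 in 20.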

How the results depend on the processing

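No called change of Nr4a1, Nr4a2 or Nr4a3 turned its direction under any alternative. Shares of all probe sets given below count calls in either direction. On the deposited scale, without normalization, the median change of all probe sets moved to -0.22 at 120 min of ischemia and -0.12 of ischemia+reperfusion. There the ischemia+reperfusion changes were 0.89 (adjusted p = 0.05) for Nr4a1, 0.46 (0.15) for Nr4a2 and 0.99 (0.065) for Nr4a3 on 1393389_at, not called, and 1 Nr4a probe set was called at 120 min, 1 at 60 min and 0 from 60 to 120 min of ischemia. Of all probe sets, 1.64% and 0.843% were called at 120 and 60 min of ischemia+reperfusion, and 0.0752% from 60 to 120 min of ischemia. With arrays centred on their medians, 1 was called at 60 min of ischemia and 1 at 30 min of ischemia+reperfusion, and 1393389_at of Nr4a3 was called at 120 min of ischemia (0.83, adjusted p = 0.049). Of all probe sets, 0.161%, 0.65% and 11.8% were called in these comparisons. A pseudocount of 1 gave a Nr4a3 change on 1369067_at of 2.84 at 60 min and 3.10 at 120 min of ischemia+reperfusion, a pseudocount of 64 gave 1.48 and 1.72, and each was called. The pseudocount of 1 gave 1 call at 30 and 1 at 60 min of ischemia+reperfusion, beside 0.736% and 4.4% of all probe sets. Without a filter 1393389_at was not called at 120 min of ischemia+reperfusion (1.03, adjusted p = 0.064), 1 was called at 60 min there and 0 from 60 to 120 min of ischemia. That fit called 3.81%, 2.23% and 1.88% of all probe sets in these comparisons. With the filter at the 60th percentile Nr4a1 alone was tested, and 1 was called at 120 min in each arm and at 60 min of ischemia+reperfusion. Of all probe sets, 15.3% were called at 120 min of ischemia, and 9.93% and 7.1% at 120 and 60 min of ischemia+reperfusion.

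Without the replicate block of preparations, Nr4a2 was not called at 120 min of ischemia+reperfusion (0.49, adjusted p = 0.06), 1 was called at 60 min there and 0 from 60 to 120 min of ischemia. That fit called 3.46%, 2.21% and 0.553% of all probe sets in these comparisons. With 40 arrays as samples and the block, and with duplicateCorrelation and the block, 1393389_at of Nr4a3 was called at 120 min of ischemia (0.82, adjusted p = 0.019 and 0.029). Calls were then 1 at 60 min of ischemia, 1 at 10 and 1 at 30 min of ischemia+reperfusion, and 3 from 60 to 120 min of ischemia, and with arrays as samples 1 from 10 to 30 min of ischemia and 1 between the arms at 120 min. These fits count duplicates as samples. With arrays as samples, 2.63% of all probe sets were called at 60 min of ischemia and 11.1% from 60 to 120 min. At 10 and 30 min of ischemia+reperfusion 2.49% and 5.14% were. The main fit called 0.129%, 2.74%, 0.0376% and 0.784%, and that with duplicateCorrelation 1.58%, 8.66%, 1.87% and 3.81%, in the same order. With arrays as samples, 0.891% were called from 10 to 30 min of ischemia and 0.0591% between the arms at 120 min. With an intensity trend, 1 was called at 60 min of ischemia, 1 at 30 min of ischemia+reperfusion, and 1393389_at at 120 min of ischemia (0.82, adjusted p = 0.049). Of all probe sets, 0.166%, 1.05% and 13.9% were called in these comparisons.

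With only the groups compared in the fit, which leaves few samples, 0 were called at 120 min of ischemia, 0 at 60 and 0 at 120 min of ischemia+reperfusion, and 0 from 60 to 120 min of ischemia. In each of these comparisons that setting called 0% of all 18625 probe sets as well. The changes stayed at 1.98 for Nr4a1, 0.71 for Nr4a2 and 1.93 for Nr4a3 in ischemia (adjusted p = 0.3), and at 1.01, 0.49, 2.54 and 1.03 in ischemia+reperfusion (adjusted p = 0.16, 0.25, 0.12 and 0.15). Without the pair that stood apart, 0 were called from 60 to 120 min of ischemia and 1 between the arms at 120 min, beside 3.76% and 3.59% of all probe sets. Leaving out 1 array at a time, the Nr4a3 change on 1393389_at at 120 min of ischemia ran from 0.39 to 1.24, that of Nr4a2 at 120 min of ischemia+reperfusion from 0.41 to 0.57, and calls from 0 to 1 at 60 min of ischemia, 0 to 1 at 10 and at 30 min and 1 to 3 at 60 min of ischemia+reperfusion, and 0 to 2 from 60 to 120 min of ischemia. The causes were not tested.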
